A study of Mus musculus with 4 samples.

Results

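The miR-10 and miR-196 families are small RNAs encoded inside the Hox clusters, the groups of homeobox genes that set position along the body axis. Their members were taken as the 5 mouse hairpins Mir10a, Mir10b, Mir196a-1, Mir196a-2 and Mir196b, of 2202 hairpins in the annotation, together with every read that matched one of them without mismatch on the sense strand or did so after removal of 1 to 3 nt from its 3′ end. These hairpins gave 347 distinct reads, with 5096 and 6244 reads in the Ago2 CD libraries (replicates 1 and 2) and 4126 and 2467 reads in the wildtype libraries (replicates 1 and 2). Small RNA of mouse fetal liver was sequenced from Ago2 catalytic dead (Ago2 CD) mutants and from wildtype controls, with 2 libraries per genotype that the series' design text calls biological replicates. The allele, the age of the fetuses and any pooling of livers are not given in the sources used here, and the tissue is bulk liver, so fewer cells of a type and less of a miRNA per cell cannot be told apart.

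A miRNA is cut from a hairpin precursor as a short duplex, and 1 strand, the guide, stays in an Argonaute protein. The guide's bases 2 to 8, the seed, select most targets. Ago2 is the Argonaute of mammals that can cut an RNA paired along the guide, and the catalytic dead protein lacks that activity. Most miRNA targets are only partly paired and are repressed without a cut. miR-196 and the Hoxb8 mRNA are a known exception in mouse, in which near-complete pairing directs cutting of the target. miR-10a and miR-10b are likewise known for targets among Hox genes, and miR-196b is expressed in blood stem and progenitor cells, which the fetal liver holds.

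The guide strands of the families are shown first, because both families consist of near-identical copies that only 1 base tells apart. The sequences are RefSeq's mature miRNAs (GRCm38.p6), 5′ to 3′, with the seed in capitals.
miR-10a-5p: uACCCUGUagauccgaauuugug
miR-10b-5p: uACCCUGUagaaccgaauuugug
miR-196a-5p: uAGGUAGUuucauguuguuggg
miR-196b-5p: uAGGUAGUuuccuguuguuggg
Counted from 1 at the 5′ end, miR-10a-5p and miR-10b-5p differ by the substitution U12A, and miR-196a-5p and miR-196b-5p differ by A12C. Each pair thus shares its seed, ACCCUGU for miR-10 and AGGUAGU for miR-196.

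The hairpins lie in 4 Hox clusters, given here in GRCm38 coordinates. Mir10a is on chromosome 11 (96317165 to 96317274, plus strand) between Hoxb5 and Hoxb4, 992 bases from Hoxb4. Mir196a-1 is on the same chromosome (96265164 to 96265265, plus strand), 6191 bases from Hoxb9. Mir10b is on chromosome 2 (74726070 to 74726137, plus strand), in introns of Hoxd3 and Hoxd4 transcripts. Mir196a-2 is on chromosome 15 (102973350 to 102973434, plus strand), in an intron of a Hoxc5 transcript and 1456 bases from Hoxc10. Mir196b is on chromosome 6 (52230081 to 52230165, minus strand), inside Hoxa9, where it overlaps an exon of 2 transcripts and lies in an intron of 1. Only 1 read, from Mir10a in Ago2 CD replicate 1, matched the opposite strand of any of the 5 hairpins.

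The libraries held between 13138065 and 21875540 reads, of which 7814123 to 14422981 were untailed reads of 18 to 27 nt on an arm of some hairpin. Their longest reads were 50 nt in Ago2 CD replicate 2 and wildtype replicate 1, and 46 nt in Ago2 CD replicate 1 and wildtype replicate 2, so each length held 1 library of each genotype. The labels do not say what this difference stems from. The maturation of miR-451a-5p is known to need the catalytic activity of Ago2. It had 1203 and 965.7 counts per 1000000 (CPM) in Ago2 CD livers, against 840900 and 415700 CPM in wildtype livers. CPM refer to a library size scaled by TMM factors, which set a typical arm level between libraries. They are not shares of the arm reads: the scaled size of wildtype replicate 1 was 5974520, against 9684834 arm reads. A sum of CPM can therefore exceed 1000000. The hepatocyte miRNA miR-122-5p was present in each library (62640 and 27540 CPM in Ago2 CD, 19040 and 48670 CPM in wildtype), higher in both libraries with 46 nt. The summed level of 3 skeletal muscle miRNAs was 13.25 and 34.72 CPM in Ago2 CD livers, against 706.2 and 31.18 CPM in wildtype livers. The neural miRNAs miR-9-5p and miR-124-3p summed to 271.9 and 14.41 CPM in Ago2 CD and to 10.88 and 230.6 CPM in wildtype, again high in the libraries with 46 nt. Their part in the results below was not tested.

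No tested arm of the 5 hairpins differed in level between the genotypes beyond the spread between libraries. miR-10a-5p was by far the most frequent of them, miR-10b-5p and miR-196b-5p stood far below it, and miR-196a-5p was close to the limit of detection.

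miR-10a-5p, the guide of Mir10a, had 4122 and 3953 reads in Ago2 CD livers, against 2888 and 1940 reads in wildtype livers. These were 206.9 and 415.8 CPM in Ago2 CD and 483.4 and 219.2 CPM in wildtype, or 311.4 ± 147.7 CPM and 351.3 ± 186.8 CPM (SD, n = 2 each). The groups overlapped, with 1 high and 1 low library in each. The log2 fold change, Ago2 CD over wildtype, was -0.17 with a standard error of 0.57 (edgeR quasi-likelihood test, Benjamini-Hochberg adjusted p = 0.996). Its mean level ranked 132 of 584 arms tested.

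miR-10b-5p, its paralogue from the Hoxd cluster, had 9.79 and 29.03 CPM in Ago2 CD livers (195 and 276 reads), against 28.29 and 14.58 CPM in wildtype livers (169 and 129 reads). The log2 fold change was -0.14 with a standard error of 0.69 (edgeR adjusted p = 0.996). The library of each genotype with 50 nt was again the higher.

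miR-196b-5p, the main miR-196 of these livers, had 11.35 and 37.13 CPM in Ago2 CD (226 and 353 reads), against 23.43 and 12.99 CPM in wildtype (140 and 115 reads). The log2 fold change was 0.41 with a standard error of 0.71 (edgeR adjusted p = 0.996). Without Ago2 CD replicate 2 it was -0.66, so 1 library set the direction. The levels of miR-10b-5p and miR-196b-5p, ranked 315 and 310 of 584, did not differ beyond the spread between libraries.

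miR-10a-3p, the passenger strand of Mir10a, had 6.78 and 9.89 CPM in Ago2 CD livers (135 and 94 reads), against 10.38 and 6.44 CPM in wildtype livers (62 and 57 reads). The log2 fold change was -0.01 with a standard error of 0.45 (edgeR adjusted p = 0.998). It ranked 382 of 584.

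The other arms were too rare for the test. miR-10b-3p had 2 and 6 reads in Ago2 CD, against 0 and 1 reads in wildtype. miR-196a-5p, with the reads of both of its hairpins together, had 12 and 19 reads in Ago2 CD and 4 and 7 reads in wildtype, or 0.602 and 2.0 CPM against 0.67 and 0.791 CPM. No untailed read of 18 to 27 nt came from a 3p arm of any miR-196 hairpin.

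**Figure D1:**
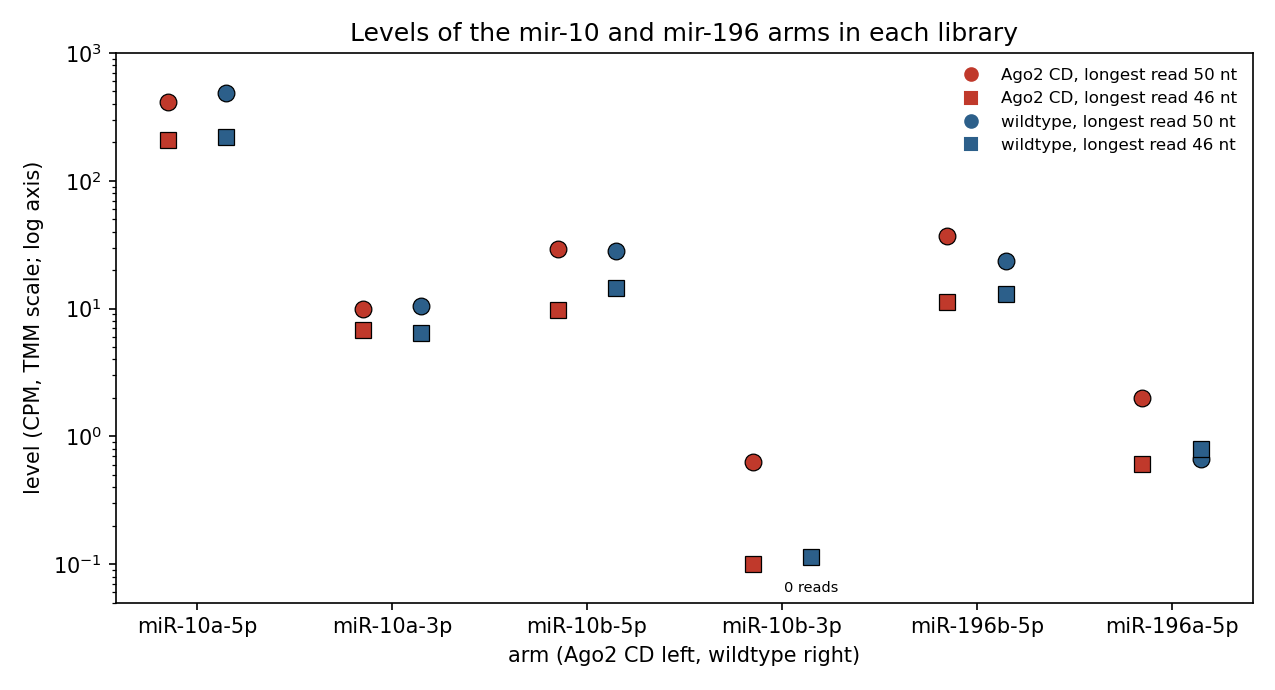
Level of each arm in each library, in CPM on a logarithmic axis; Ago2 CD is on the left and wildtype on the right of each arm, circles are libraries with a longest read of 50 nt and squares those with 46 nt, and "0 reads" marks wildtype replicate 1 for miR-10b-3p. In miR-10a-5p, miR-10a-3p, miR-10b-5p and miR-196b-5p each circle lies above both squares, and the genotypes overlap.

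Of 4 member arms that passed the filter on low counts, 0 were past the threshold of an adjusted p under 0.05, where 2 of all 584 arms were (0.342%; miR-486-3p higher and miR-451a-5p lower in Ago2 CD). At an unadjusted p under 0.05 there were 18 such arms, and no member among them. DESeq2 put 8 arms past the threshold and again 0 members. The median log2 fold change was -0.08 over the 4 members and 0.04 over all arms. Of the 4, 1 was above 0, against 53.8% of all arms.

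These fold changes depend on the scaling. With library sizes from all reads of 18 nt or longer in place of TMM, the median log2 fold change of all arms was 0.57. On that scale miR-10a-5p was at 0.46, miR-10b-5p at 0.41 and miR-10a-3p at 0.59, near that median. Above it stood miR-196b-5p at 0.94, and none of the 4 had a call. Ago2 CD and wildtype libraries with the same longest read were also set against each other, first those with 50 nt and then those with 46 nt. miR-10a-5p gave -0.22 and -0.08 on the log2 scale, miR-10a-3p -0.07 and 0.07, miR-10b-5p 0.04 and -0.57, and miR-196b-5p 0.66 and -0.19. None of these pairs has a replicate. The pooled sign of miR-10a-5p also rested on single libraries: leaving out Ago2 CD replicate 1 gave 0.26, and leaving out wildtype replicate 1 gave 0.53. miR-10b-5p ran from -1.11 to 0.46 and miR-10a-3p from -0.31 to 0.40 when 1 library was left out.

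The near-identical copies had like shares in each library, in a design that could not have shown a difference. miR-10a-5p supplied 95.5% and 93.5% of miR-10 guide reads in Ago2 CD livers, against 94.5% and 93.8% in wildtype livers. The difference of 0.360 percentage points was smaller than the SD of 1.42 in Ago2 CD (exact permutation test, two-sided, p = 1; with 2 libraries against 2 it cannot go below 0.33). miR-196b-5p supplied 95.0% and 94.9% of miR-196 guide reads in Ago2 CD, against 97.2% and 94.3% in wildtype, a difference of -0.817 percentage points (exact permutation test, two-sided, p = 1). That share rests on 4 to 19 miR-196a-5p reads a library, and without 1 library the difference lay between -2.3 and 0.663.

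The base at position 12, which tells the copies apart, was read clearly. Over all libraries, the 22-nt reads otherwise identical to the main miR-10 read had T (miR-10a) 7792 times, A (miR-10b) 499 times, C 9 times and G 1 time. For miR-196 the base was C (miR-196b) 307 times, A (miR-196a) 25 times and T 2 times, with no G. Bases of neither copy were thus much rarer than either copy. The 2 hairpins of miR-196a share their guide. Reads that matched just one of them numbered 1 and 2 for Mir196a-1 in Ago2 CD, against 0 and 0 in wildtype, and 2 and 2 for Mir196a-2 in Ago2 CD, against 0 and 0 in wildtype. Which hairpin supplied the shared reads cannot be told apart.

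The choice of strand did not differ beyond the spread in Mir10a, the one member with enough reads on both arms for the test. Its 3p arm held 3.17% and 2.32% of arm reads in Ago2 CD livers, against 2.10% and 2.85% in wildtype livers. The log2 ratio of 3p over 5p reads differed by 0.15 with a standard error of 0.56 (limma, adjusted p = 0.994). Over all hairpins tested, 2 had a call (1.02%). The 3p share of Mir10b was 1.02% and 2.13% in Ago2 CD, against 0% and 0.769% in wildtype, from 2, 6, 0 and 1 reads. For Mir196b, 0 of 834 reads in all libraries came from the 3p arm, which allows a share of up to 0.360%. For the miR-196a hairpins it was 0 of 42, which allows up to 7.14%. These limits cover counting error only.

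The passenger strands of both miR-10 hairpins start with a c and differ within the seed, so that the shared seed of the family holds for the guides alone. They are printed to show this, from RefSeq, with the seed in capitals.
miR-10a-3p: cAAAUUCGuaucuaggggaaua
miR-10b-3p: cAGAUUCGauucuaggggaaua

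The reads of miR-10a-5p fell into a few forms, which are printed as they stand in the files, with T for U and the bases 2 to 8 of each read in capitals.
miR-10a-5p, annotated start: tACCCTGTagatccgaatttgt
miR-10a-5p, start 1 base later: aCCCTGTAgatccgaatttgt
The most frequent read ended 1 base before the RefSeq mature sequence and had 2290 and 2559 reads in Ago2 CD, against 1888 and 1055 in wildtype. The later start moves the seed by 1 base, to CCCTGTA, and that read had 444 and 242 reads in Ago2 CD, against 194 and 192 in wildtype.

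Of all untailed miR-10a-5p reads, 26.5% and 16.7% had the later start in Ago2 CD livers, against 17.5% and 27.2% in wildtype livers. The annotated start was used by 71.3% and 81.3% in Ago2 CD and by 79.95% and 69.7% in wildtype. The log2 ratio of other starts to the main start gave no call by genotype (-0.11 with a standard error of 0.50, limma, adjusted p = 0.999), and no arm of 253 had a call (0%; 2 at an unadjusted p under 0.05). In miR-10b-5p the later start made up 11.3% and 16.7% in Ago2 CD and 11.8% and 21.7% in wildtype. Reads of miR-196b-5p almost all had the annotated start, 92.9% and 99.2% in Ago2 CD and 100% and 96.5% in wildtype.

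Mean read length of miR-10a-5p was 21.79 and 21.81 nt in Ago2 CD, against 21.79 and 21.82 nt in wildtype. The difference of -0.0032 nt had a standard error of 0.087 (limma, adjusted p = 1.0 after rounding), beside 1 call among 253 arms (0.395%). No read of 28 nt or longer came from any of the 5 hairpins.

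Tails are 3′ bases of a read that the hairpin does not encode. They made up 4.72% and 23.6% of miR-10a-5p reads in Ago2 CD livers, against 19.9% and 5.04% in wildtype livers. The log2 ratio of tailed to untailed reads differed by 0.10 with a standard error of 1.27 (limma, adjusted p = 0.999), and 0 of 253 arms had a call (0%; also 0 at an unadjusted p under 0.05). Each genotype had 1 library with many tails and 1 with few.

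Arms with 50 to 200 reads in a library entered the tests of tails, lengths and starts only at a lower minimum of 50 reads, without a call by genotype. miR-10a-3p was tailed in 4.93% and 20.3% of reads in Ago2 CD and 25.3% and 10.9% in wildtype (log2 difference -0.82, standard error 1.01, limma, adjusted p = 0.999). Without reads ending in 1 added C, its tailed share was 4.93% and 5.08% in Ago2 CD (7 and 6 reads), against 9.64% and 10.9% in wildtype (8 and 7 reads). The 95% exact binomial intervals of all 4 libraries overlapped, and this share was neither tested nor set beside that of other arms. For all tails, those with added C included, the log2 difference had a limma adjusted p of 0.0728 with the longest read in the model.

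The differences that did exceed the spread ran between the libraries with a longest read of 50 nt and those with 46 nt. That comparison was chosen after seeing the data, has 2 libraries on each side with 1 of each genotype, and was fitted with genotype in the model. What set these libraries apart was not tested. miR-10a-5p stood higher by 1.07 on the log2 scale in the libraries with 50 nt (standard error 0.14, edgeR adjusted p = 0.0017). miR-10b-5p was higher by 1.27 (standard error 0.26, edgeR adjusted p = 0.0093) and miR-196b-5p by 1.29 (standard error 0.28, edgeR adjusted p = 0.0119). miR-10a-3p differed by 0.61 and did not pass (standard error 0.24, edgeR adjusted p = 0.0822). So 3 of 4 tested members had a call, beside 226 of 584 arms (38.7%).

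The summed levels of most marker lists divided along the same line, but not all of their markers did. Their part in these level differences was not tested. Summed levels of stem and progenitor miRNAs were 3335 and 3593 CPM in the libraries with 50 nt (Ago2 CD replicate 2 and wildtype replicate 1), against 2863 and 2908 CPM in those with 46 nt (Ago2 CD replicate 1 and wildtype replicate 2). In that list miR-125a-5p overlapped between the pairs (1316 and 1368 CPM, against 1325 and 1231 CPM). The endothelial list summed to 7520 and 8256 CPM, against 6239 and 6190 CPM, but its 2 markers went opposite ways. In the libraries with 50 nt miR-126a-5p was higher (4830 and 5208 CPM, against 3055 and 2894 CPM). There miR-126a-3p was lower (2690 and 3048 CPM, against 3184 and 3296 CPM). Lower in sum in the libraries with 50 nt were hepatocyte miRNAs (33940 and 25200 CPM, against 70470 and 55960 CPM). So were epithelial miRNAs (1034 and 775.8 CPM, against 1645 and 1551 CPM) and mesenchymal miRNAs (2025 and 2330 CPM, against 3074 and 3162 CPM). Most of the hepatocyte sum was miR-122-5p, and miR-192-5p went the other way (4022 and 3775 CPM, against 3516 and 3050 CPM). Overlap between the pairs was seen in miR-200c-3p (71.85 and 56.07 CPM, against 35.84 and 75.48 CPM). It was also seen in miR-141-3p (128.3 and 89.21 CPM, against 72.49 and 145.1 CPM) and miR-199a-3p (513.7 and 868.2 CPM, against 805.3 and 850 CPM). The gut and kidney list, which shares 2 of its 3 markers with the hepatocyte list, had 6406 and 6160 CPM, against 7831 and 7374 CPM. Myeloid and lymphoid miRNAs had 60340 and 70500 CPM, against 70880 and 71130 CPM. Most of that sum was miR-142-3p, which overlapped between the pairs (35120 and 48200 CPM, against 47570 and 51020 CPM). So did miR-155-5p (30.82 and 22.26 CPM, against 24.4 and 22.83 CPM). In this list miR-142-5p was higher in the libraries with 50 nt (22140 and 18830 CPM, against 18770 and 14360 CPM). In contrast, miR-223-3p was lower there (3017 and 3413 CPM, against 4476 and 5683 CPM), and so was miR-150-5p (33.56 and 34.65 CPM, against 39.66 and 40 CPM). The erythroid list, with miR-451a in it, did not divide this way in sum (246800 and 330100 CPM in Ago2 CD, 1123000 and 585800 CPM in wildtype). Within it miR-144-3p was higher in the libraries with 50 nt (326400 and 277300 CPM, against 242000 and 163400 CPM). Lower there was miR-144-5p (2085 and 2363 CPM, against 3006 and 4989 CPM). For miR-486-5p the pairs overlapped (642.6 and 2176 CPM, against 543.7 and 1667 CPM).

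The scaling decides how far these level differences go. With library sizes from all reads of 18 nt or longer, the median of all arms was lower by 0.66 in the libraries with 50 nt. On that scale the 3 guides differed by 0.36 (miR-10a-5p), 0.56 (miR-10b-5p) and 0.58 (miR-196b-5p), with no call. Without genotype in the model miR-10b-5p (1.24, edgeR adjusted p = 0.0760) and miR-196b-5p (1.32, edgeR adjusted p = 0.0801) lost their call, and so did miR-196b-5p when reads of 16 to 30 nt were counted (1.00, edgeR adjusted p = 0.0651).

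**Figure D2:**
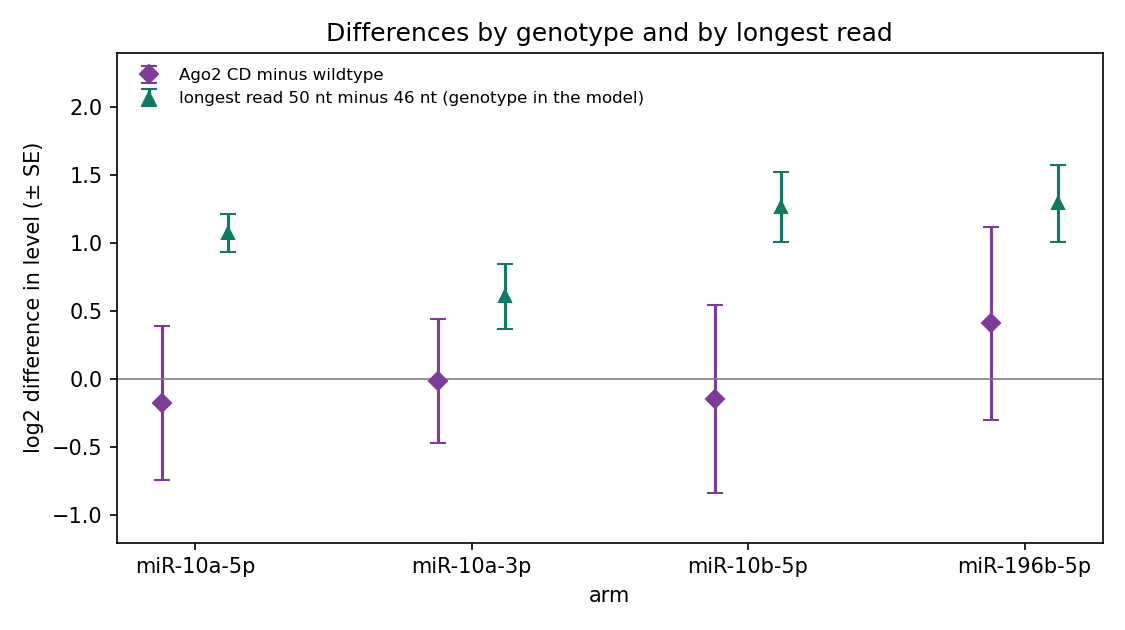
Log2 difference in level for the 4 tested arms, with standard errors: diamonds are Ago2 CD minus wildtype, and triangles are libraries with a longest read of 50 nt minus those with 46 nt, with genotype in the model. The diamonds lie between -0.17 and 0.41 with standard errors that span 0, and the triangles between 0.61 and 1.29.

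The tails of miR-10a-5p and miR-10b-5p showed the same division. Added A in miR-10a-5p went the other way, with values given below. In the libraries with 50 nt most tailed reads of both arms had 1 added C. The most frequent reads with that C are printed with the added base in capitals.
miR-10a-5p with C: taccctgtagatccgaatttgC
miR-10b-5p with C: taccctgtagaaccgaatttgC
The hairpins have T at that place, so the reads can equally be seen as 22-nt guides with C in place of the last T. The miR-10a-5p form had 837 and 509 reads in the libraries with 50 nt (Ago2 CD replicate 2 and wildtype replicate 1), against 2 and 0 reads in those with 46 nt (Ago2 CD replicate 1 and wildtype replicate 2). The miR-10b-5p form had 75 and 41 reads in the libraries with 50 nt, against 0 and 0 in those with 46 nt.

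Reads with 1 added C of any kind made up 20.4% and 17.6% of miR-10a-5p in the libraries with 50 nt, against 0.139% and 0.0490% in those with 46 nt. For miR-10b-5p it was 24.0% and 21.8%, against 0% and 0%. For miR-196b-5p it was 6.95% and 7.69%, against 0% and 0.680%. The tailed to untailed ratio was higher in the libraries with 50 nt by 2.43 on the log2 scale for miR-10a-5p (limma adjusted p = 5.91e-08), by 2.93 for miR-10b-5p (1.52e-08) and by 1.81 for miR-10a-3p (4.3e-06). For miR-196b-5p it was 0.20 (limma adjusted p = 0.368). These 3 calls of 4 stand beside 254 of 356 arms (71.3%). Tails of 1 nt other than C gave no limma call in any of 356 arms (0%), with 153 at an unadjusted p under 0.05.

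Tails of 1 nt other than C were lower in miR-10a-5p in the libraries with 50 nt, by a log2 ratio of -1.01 that did not pass (limma adjusted p = 0.0810). Most of them were A, which was not tested alone. It made up 1.55% and 1.25% of reads in the libraries with 50 nt, against 3.49% and 3.77% in those with 46 nt.

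Added T in miR-196b-5p had much the same share in each library. Reads with 1 added T, which corresponds to U in the RNA, made up 11.3% and 11.4% of its reads in Ago2 CD livers, against 12.6% and 12.9% in wildtype livers. The exact binomial 95% intervals ran between 7.82% and 19.5% and all overlapped. Added T was at most 0.343% of miR-10a-5p reads and at most 1.04% of miR-10b-5p reads in any library. In miR-10a-3p it was 2.11% and 3.39% in Ago2 CD (3 and 4 reads), against 3.61% and 6.25% in wildtype (3 and 4 reads). In miR-196a-5p the 22-nt guide with T added had 0 and 5 reads in Ago2 CD, against 1 and 0 in wildtype, and the same read without its first base had 1 and 1 in Ago2 CD, against 0 and 0 in wildtype. The share of miR-196b-5p reads with any tail was 17.5% and 20.9% in Ago2 CD, against 23.1% and 21.8% in wildtype.

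**Figure D3:**
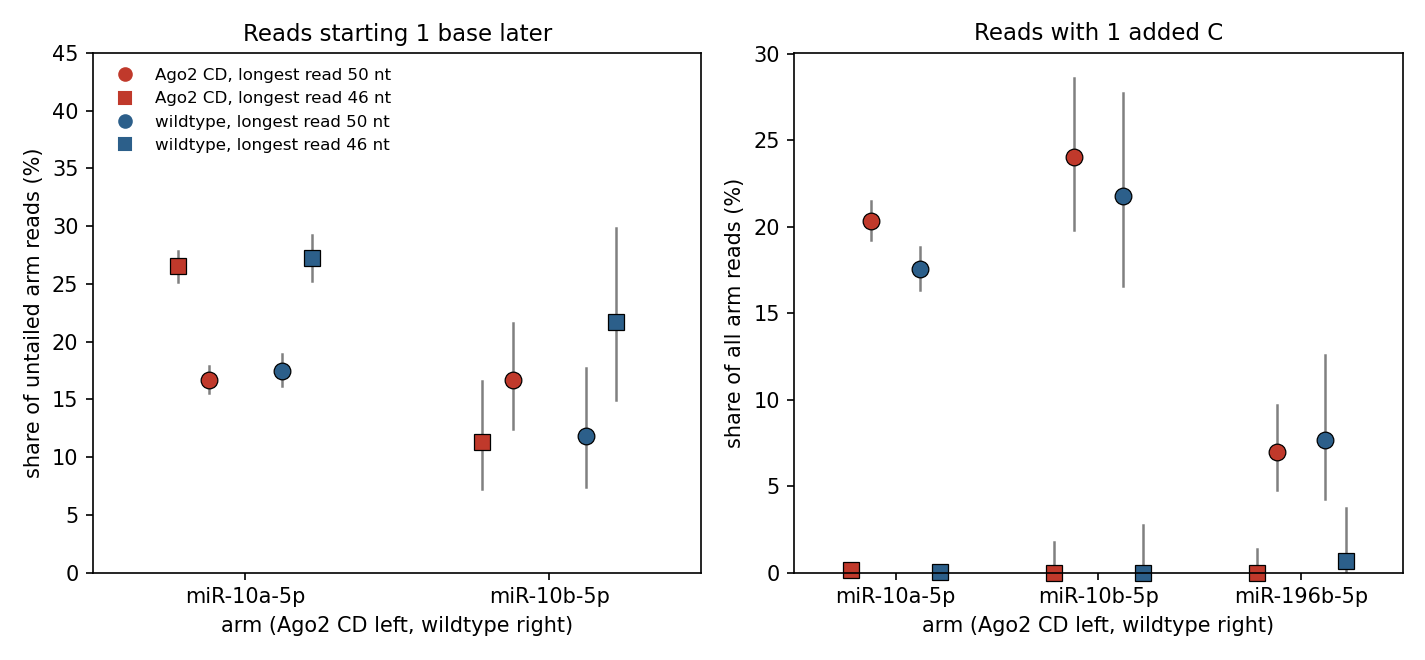
Left, share of untailed miR-10a-5p and miR-10b-5p reads that start 1 base after the annotated start; right, share of all reads with 1 added C for these and miR-196b-5p, both in percent with exact binomial 95% intervals. Ago2 CD is left of wildtype, circles are libraries with a longest read of 50 nt and squares those with 46 nt; added C is at 6.95% or more in circles and at 0.680% or less in squares.

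The 5′ ends of miR-10a-5p also differed between the library pairs. The later start held 16.7% and 17.5% in the libraries with 50 nt, against 26.5% and 27.2% in those with 46 nt, and the log2 ratio of other starts to the main one was lower by 0.80 (value -0.80, limma adjusted p = 0.0325). miR-10b-5p did not follow (-0.33, limma adjusted p = 0.612). In miR-196b-5p, where other starts were 3 and 0 reads in the libraries with 50 nt, against 16 and 4 in those with 46 nt, the value was -3.24 (limma adjusted p = 0.0030). The background was 145 of 356 arms (40.7%).

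The 3′ ends of miR-196b-5p differed most plainly. Its main forms are printed with the seed in capitals, to show where each ends.
miR-196b-5p, 22 nt: tAGGTAGTttcctgttgttggg
miR-196b-5p, 21 nt: tAGGTAGTttcctgttgttgg
miR-196b-5p, 18 nt: tAGGTAGTttcctgttgt
miR-196b-5p, 16 nt: tAGGTAGTttcctgtt
All 4 keep the seed and the first 16 bases. The 22-nt form, the RefSeq mature sequence, had 116 and 40 reads in the libraries with 50 nt (Ago2 CD replicate 2 and wildtype replicate 1), against 92 and 59 in those with 46 nt (Ago2 CD replicate 1 and wildtype replicate 2). The 21-nt form had 0 and 0 reads in the libraries with 50 nt, against 83 and 38 in those with 46 nt. The 18-nt form had 189 and 81 reads in the libraries with 50 nt, against 1 and 1 in those with 46 nt. The 16-nt form had 0 and 0 reads in the libraries with 50 nt, against 43 and 21 in those with 46 nt.

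Each pair of libraries thus had a short form that the other lacked or nearly lacked, in both genotypes. Reads of 18 nt were 53.8% and 57.9% of untailed miR-196b-5p reads in the libraries with 50 nt, against 1.77% and 2.61% in those with 46 nt. Reads of 21 nt were 0.283% and 0%, against 38.5% and 33.0%. Mean length was 19.76 and 19.64 nt in the libraries with 50 nt, against 21.51 and 21.51 nt in those with 46 nt, a difference of -1.82 nt (standard error 0.054, limma adjusted p = 1.09e-04). By genotype the means were 21.51 and 19.76 nt in Ago2 CD, against 19.64 and 21.51 nt in wildtype, a difference of 0.062 nt (standard error 0.99, limma adjusted p = 1.0 after rounding).

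The other members moved little in length. miR-10a-3p was longer by 0.18 nt in the libraries with 50 nt (limma adjusted p = 0.0358). miR-10b-5p (-0.16 nt, limma adjusted p = 0.0537) and miR-10a-5p (-0.0044 nt, limma adjusted p = 0.930) did not pass. Of all arms, 202 of 356 passed (56.7%), beside 2 of 4 members. The 3p to 5p ratio of Mir10a differed by -0.46 between the pairs (limma adjusted p = 0.177), beside calls in 3 of the hairpins tested (1.53%).

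In the rare miR-196a-5p the 22-nt and 18-nt forms were also found. Its 22-nt read had 11 and 1 reads in the libraries with 50 nt, against 6 and 7 in those with 46 nt. Its 18-nt read had 3 and 3 reads in the libraries with 50 nt, against 0 and 0 in those with 46 nt. No form of 21 nt was among its 7 untailed reads in wildtype replicate 2, which all had 22 nt. These counts are too few for a comparison with miR-196b-5p.

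**Figure D4:**
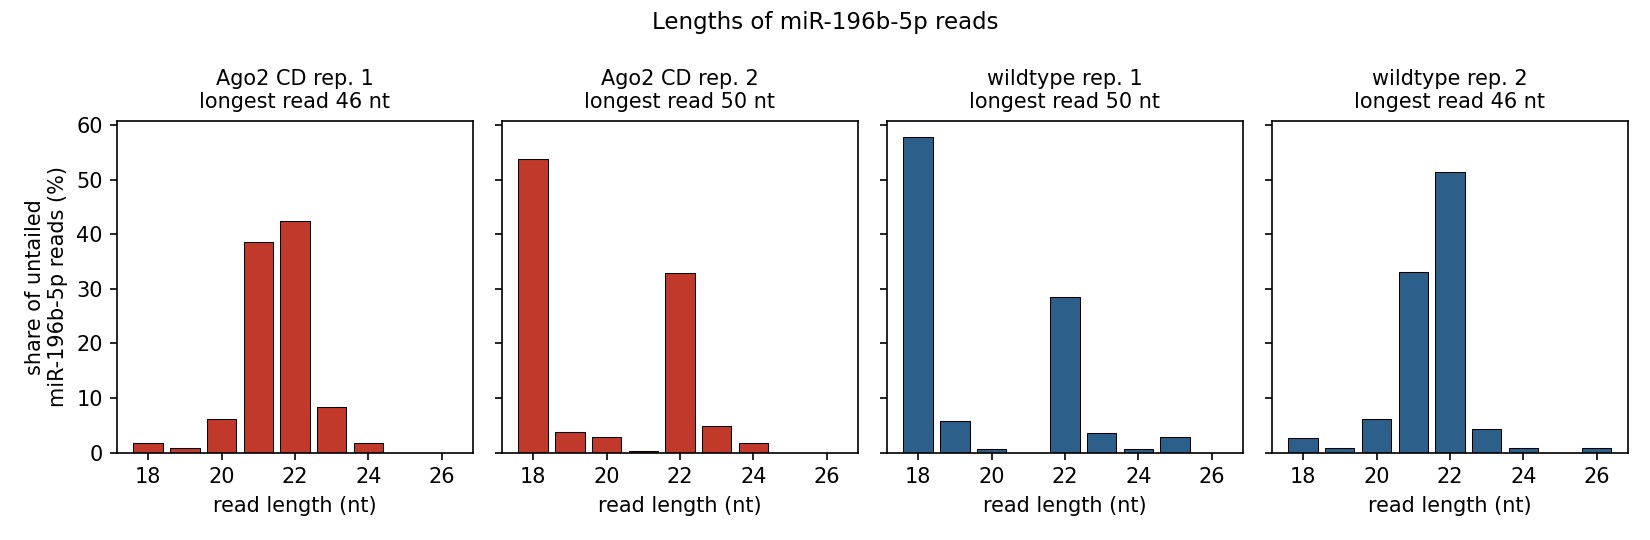
Share of untailed miR-196b-5p reads at each length from 18 to 26 nt, in percent, in 1 panel per library (Ago2 CD on the left, wildtype on the right). Reads of 18 nt hold 53.8% and 57.9% in the middle panels, whose longest read was 50 nt, and reads of 21 nt hold 38.5% and 33.0% in the outer panels, whose longest read was 46 nt.

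Because the form of 18 nt was the shortest that counted and that of 16 nt did not count, the counted length enters the level of miR-196b-5p. The 22-nt form alone had 12.2 and 6.70 CPM in the libraries with 50 nt, against 4.62 and 6.67 CPM in those with 46 nt. Those 4 values are 4.62 and 12.2 CPM in Ago2 CD and 6.70 and 6.67 CPM in wildtype.

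The site of Hoxb8 that miR-196 pairs with was located in the reference, as the cut it directs is the known link between this family and the activity that the mutant lacks. It lies on chromosome 11, 96284888 to 96284909 (GRCm38, plus strand), in exon 2 of Hoxb8 and after the stop codon, that is in the 3′ UTR. It is printed once for each guide, 5′ to 3′ on the mRNA strand, with bases in Watson-Crick pairs in capitals and other bases in lower case.
Hoxb8 site for miR-196a-5p: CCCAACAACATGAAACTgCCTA
Hoxb8 site for miR-196b-5p: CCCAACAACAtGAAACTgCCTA
The miR-196a guide had 21 Watson-Crick pairs and a G:U pair at guide position 5. The miR-196b guide had 20, the same G:U pair and a mismatch at guide position 12, the base by which the guides differ. Guide positions count from 1 at the guide's 5′ end. Positions 10 and 11, which flank the bond that Argonaute cuts, were paired in both.

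No read of 16 nt or longer started or ended within 2 nt of that bond or spanned it in any library. In all, 2 and 2 reads of that size matched the Hoxb8 transcript anywhere in Ago2 CD, against 3 and 0 in wildtype. A difference in cutting was thus not detectable in these libraries of short reads.

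Fragments unique to 1 Hox mRNA were very few. Of 39 Hox genes, 5 had any fragment of 20 nt or longer unique to them, with no more than 2 for any gene (Hoxb3). There were 4 and 2 fragments in Ago2 CD livers, against 0 and 0 in wildtype livers, too few to compare the genotypes. Reads of 18 nt or longer numbered 20652361 and 14553895 in Ago2 CD, against 15321860 and 12501455 in wildtype. Without a filter the median log2 fold change of 12783 genes was 0.22, and 0 Hox genes had a call. Among the known miR-196 targets on the list, Hoxc8 had 1 fragment, in Ago2 CD replicate 1, and Hoxb8, Hoxd8 and Hoxa7 had 0. Hoxd10, a known target of miR-10b, had 0 as well. Reads that matched a Hox transcript but other genes too were more frequent and cannot be assigned: for Hoxb6 they numbered 134 and 36 in Ago2 CD, against 32 and 56 in wildtype, and for Hoxb3 93 and 28, against 21 and 35. Hoxb9 had 31 and 20 of them in Ago2 CD, against 10 and 24 in wildtype, Hoxc9 35 and 21, against 10 and 23, and Hoxa7 2 and 1, against 1 and 1. No Hox gene passed the filter into the edgeR test of 2308 genes, of which 2 had a call (0.0867%).

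Arms with a like pattern over the 4 libraries were sought among 365 others with a mean of at least 10 CPM, by the root mean square difference of mean-centred log2 CPM. The nearest to miR-10a-5p were miR-450b-5p (0.033), miR-130b-5p (0.046) and miR-19a-3p (0.046). miR-10b-5p was nearest to miR-301b-3p (0.083), miR-497-5p (0.10) and miR-100-5p (0.14). miR-196b-5p was nearest to the miR-92a arm shared by 2 hairpins (0.13), miR-25-3p (0.14) and miR-409-3p (0.20). All of these stood higher in both libraries with 50 nt than in both with 46 nt, miR-19a-3p for instance at 18780 and 20400 CPM, against 9453 and 9501 CPM. With 4 libraries that fall into these pairs, such likeness describes the division and nothing beyond it.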

How the data were processed

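Per the labels' protocols, total RNA of dissected frozen livers was extracted with Trizol and libraries were made with a modified TruSeq small RNA kit. The deposited files hold counts by the authors: each distinct read and how often it occurred, not normalized. The submitters' processing notes name cutadapt, a trimming program; its version and settings, and an aligner or build, are not given in the sources used here. The shortest read was 16 nt. Rows that repeated a sequence (5617 in Ago2 CD replicate 2, 4152 in wildtype replicate 1) were summed, and reads with an undetermined base (0.183% to 0.256%) were left out.

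Reads were matched without mismatch to the 2202 hairpins of GENCODE vM21 (GRCm38). Reads centred before a hairpin's midpoint were assigned to its 5p arm, and the others to its 3p arm. Untailed reads of 18 to 27 nt gave the levels, and reads shared between unmerged arms (0.00949% to 0.0293%) were left out. All 5 hairpins matched RefSeq entries by symbol. Levels and fragments were tested with edgeR 4.0.16 (TMM, filterByExpr, quasi-likelihood) in R 4.3.3; DESeq2 1.42.0 was an alternative. Ratios (pseudocount 0.5), tails, lengths and starts were tested with limma 3.58.1 over all arms that reached 200 reads per library, or 50 for the comparison by longest read. For the arm ratio a hairpin needed 20 reads per library and 10 on its minor arm. All tests were two-sided with Benjamini-Hochberg adjustment and a threshold of 0.05. Standard errors of levels are the fold change over the square root of F. Within-pair changes used a prior count of 2.

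Shares have exact Clopper-Pearson 95% intervals, and 0 reads are read as allowing 3; both cover counting error only. By genotype, p-values of edgeR and limma rest on the spread between 2 libraries a genotype and on the spread of all arms tested, which both methods pool. By longest read, they rest on the spread left after genotype and longest read. With so few libraries that is largely the pooled spread of other arms. How evenly different small RNAs were captured was not tested. The functions were run on simulated data that lacked the division by longest read. How the tests behave under that division was not examined. Every arm of the 5 hairpins is named, with the 3 nearest arms for each with a mean of at least 10 CPM. The members, lists and tests were chosen with earlier results of these data known.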

Additional observations from a re-analysis of the deposited data

How the results depend on the processing

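In no alternative did a member's level, arm ratio, tails, length or start have a call by genotype, but signs changed readily. With library sizes from all reads of 18 nt or longer miR-196b-5p kept its sign (0.94). The log2 fold changes of miR-10a-5p, miR-10a-3p and miR-10b-5p were then 0.46, 0.59 and 0.41. miR-10a-3p was also above 0 without a filter (0.057), with reads of 16 to 30 nt (0.038), with the replicate number as a block (9.88e-05) and with the longest read in the model (0.0024). Leaving out 1 library at a time gave log2 fold changes from -0.74 to 0.53 for miR-10a-5p, -0.31 to 0.40 for miR-10a-3p, -1.11 to 0.46 for miR-10b-5p and -0.66 to 1.05 for miR-196b-5p. It gave -0.083 to 0.38 for the arm ratio of Mir10a, -1.22 to 1.42 for its tailed ratio, -0.021 to 0.015 nt for its length and -0.52 to 0.29 for its starts. The share of miR-10a-5p differed by -0.645 to 1.36 percentage points and that of miR-196b-5p by -2.3 to 0.663.

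Over all arms, 2 level calls became 8 with DESeq2, 12 without a filter, 17 with the longest read in the model and 0 to 4 without 1 library. The 2 arm ratio calls were 1 to 2 without 1 library. The 0 tail calls became 2 with the longest read in the model. The 1 length call became 0 at a minimum of 50 reads, with the block and without any 1 library, and 2 with the longest read. Genotypes share replicate numbers, but same-numbered libraries deviated in opposite directions (correlation -0.72), so the block (3 level calls, 0 members) does not pair them. The crossed numbers give 0.72, which with 2 libraries a genotype follows from the first value and is no further evidence; that pairing is the longest-read model, with 17 calls. Where leaving out a library left 1 in a genotype, that library was assumed to vary like the others.

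Between libraries with 50 nt and 46 nt, miR-10a-3p passed when tailed reads were counted (0.69). With library sizes from all reads of 18 nt or longer no guide passed (0.36, 0.56 and 0.58 for miR-10a-5p, miR-10b-5p and miR-196b-5p) and miR-10a-3p was at -0.091. miR-196b-5p did not pass with reads of 16 to 30 nt (1.00), nor miR-10b-5p (1.24) and miR-196b-5p (1.32) without genotype in the model. The cause of these changes was not tested, and this comparison was not run without single libraries. Few reads limit what can be said of Hox fragments, miR-196a and the 3p arms other than miR-10a-3p.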
